A study of Mus with 5 samples.

Results

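The 9 chemokine receptor genes Ccr2, Ccr4, Ccr7, Ccr8, Cxcr3, Cxcr4, Cxcr5, Cxcr6 and Cx3cr1 were followed through 4 lists of chromatin binding sites from mouse CD8 T cells. Chromatin immunoprecipitation sequencing (ChIP-seq) had been done for RARα, the retinoic acid receptor alpha, and for BATF, an AP-1 family transcription factor of activated T cells. A binding site, or peak, was counted for a receptor gene when the annotation of that peak named the gene. By this rule 50 of 15812 BATF control peaks, 30 of 9899 BATF peaks with retinoic acid (RA), 5 of 1172 RARα control peaks and 1 of 597 RARα peaks with RA belonged to the 9 genes.

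The cells were wild-type CD8 T cells from spleen, labelled as naive at the start. They had been stimulated for 24 h through CD3 and CD28 with IL-2, rested for another 24 h in 100 U/ml IL-2, and then exposed to 50 nM RA, or to none (control), for a final 1 h. The treatment labels name a different interleukin for different samples, whereas the growth protocol names IL-2. Each list had been called on 2 pooled ChIP files against the same file from normal rabbit IgG, whose labels do not say whether its cells received RA. Neither the labels nor the methods say whether the 2 files are replicates. There was thus 1 list per condition and no replicate spread, so differences between conditions are described without a test. The RARα pools were of nearly the same depth, 22655611 fragments (control) and 22475060 (RA). The BATF pools were not, with 23110180 fragments in the control against 16424269, or 71.1% of that, after RA. To compare pools, fragments at a summit were scaled to 10000000 fragments of the pool, and a depth-scaled ratio is the RA value so scaled over the control value. All intervals are 95% intervals. Those of fragments and of their ratios cover counting error only. Those of shares and of medians treat the peaks of a list as independent, and none covers replicate spread.

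Chemokine receptors are G protein-coupled receptors that steer lymphocytes along gradients of small secreted proteins, the chemokines. Ccr7 and Cxcr5 guide cells within lymphoid organs, towards the T cell zone and the B cell follicle respectively, and Cxcr4 senses Cxcl12 of the bone marrow stroma. Cxcr3, Cxcr6, Ccr2, Ccr4, Ccr8 and Cx3cr1 are receptors of effector, memory and tissue-homing lymphocytes and of myeloid cells. RA is the vitamin A metabolite that activates RARα, and it is known in T cells for inducing Ccr9, the gut-homing receptor whose gene is a neighbour of Cxcr6.

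All 9 receptor genes were named at BATF peaks in both conditions. Over all protein-coding genes of the RefSeq table the share was 46.2% for BATF without RA and 36.4% for BATF with RA. Counting only BATF peaks within 10 kb of the gene, 7 of the 9 were named in the control and 6 with RA. No share over all genes was computed for that distance. RARα peaks named 4 of the 9 genes in the control (Ccr7, Cxcr6, Ccr8 and Cx3cr1) and 1 with RA (Cxcr6), against 6.85% and 3.05% of all protein-coding genes. All 5 RARα control peaks were intergenic and named several genes, and none lay within 10 kb of a receptor gene. Ccr8 and Cx3cr1 were named by the same peak. Only Ccr7 and Cxcr6, 2 of these 4 genes, had an RARα control peak whose q-value was 0.05 or lower. The numbers of BATF peaks were uneven among the receptors. Ccr7 had 15 in the control and 11 with RA, and Cxcr5 had 13 and 6. Cxcr4 had 5 in each list, Ccr2 had 5 and 3, Cxcr6 had 4 and 2, and Cxcr3 had 2 and 1. Ccr4 had 3 and 1. Ccr8 and Cx3cr1 are neighbours, and the same 3 control peaks and the same RA peak named both. Among the 10125 protein-coding genes with a BATF control peak, whose median was 1 peak, 34 had at least as many as Ccr7 and 49 at least as many as Cxcr5. In the RA list 10 of 7977 genes had at least as many peaks as Ccr7. These numbers include peaks that also named neighbouring genes. Only 5 of the 15 control peaks of Ccr7 and 4 of the 13 of Cxcr5 named that gene alone, and 8 and 5 lay within 10 kb of it.

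**Figure D1:**
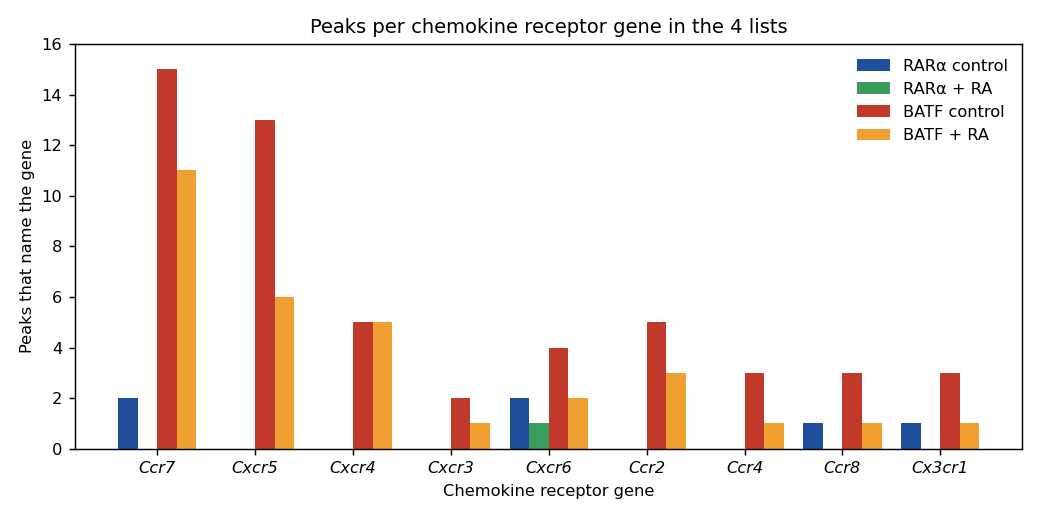
Number of peaks that name each of the 9 chemokine receptor genes (horizontal axis), with 1 bar per list: RARα control, RARα with RA, BATF control and BATF with RA. Ccr7 (15 and 11) and Cxcr5 (13 and 6) have the most BATF peaks, RARα bars stand at Ccr7, Cxcr6, Ccr8 and Cx3cr1, and a missing bar is a count of 0.

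Most BATF peaks of the receptor genes lay outside the genes. Of the 50 control peaks the authors had classed 34 as intergenic, 10 as promoter, 3 as exon and 3 as intron. The annotation names every gene around an intergenic peak but only the host gene of a promoter, exon or intron peak, so the rule by itself favours intergenic peaks. Counted as pairs of a gene and a peak, which allows for this, promoter peaks made up 18.9% of 53 pairs for the receptors and 43.8% of 22335 pairs over all protein-coding genes. With RA the shares were 16.1% and 50.4%. Of the 50 control peaks 20 named a receptor gene alone and 30 named other genes too, so for the latter the link to a receptor is by position only. The median fold enrichment, which is the summit pileup over the local IgG level as the peak caller computed it, was 5.61 at the receptors and 5.40 over the whole BATF control list. With RA these medians were 5.68 and 5.29.

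Ccr7, the receptor for Ccl19 and Ccl21 that brings naive and central memory T cells into lymph nodes, lies at chr11:99144199-99155077 of mm10. Its 15 BATF control peaks ran from 38804 bp below the gene (lower coordinates) to 15479 bp above it, and 5 of them lay in or over the gene. The broadest, at chr11:99149741-99154511, was classed as promoter and covered 4771 bp, with a summit of 53 fragments (fold 11.9). A second promoter peak at chr11:99154759-99156010, over the transcription start, had 30 fragments in the control and 20 with RA. In the RA list the stretch of the broad peak was taken by separate narrow peaks, of which 3 were centred within it, at chr11:99150159-99150400, chr11:99150639-99151036 and chr11:99152770-99153208, with 16, 14 and 21 fragments. Relative to depth, the last of these had 0.558 times (0.319 to 0.940) the summit fragments of the broad control peak, whose summit was 1162 bp away.

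The 4 highest intergenic sites of Ccr7 were called in both lists. The peak 38804 bp below the gene, at chr11:99104567-99105395, had 68 fragments in the control (fold 10.9) and 44 with RA (fold 8.46). The peak at chr11:99170556-99172263, on the promoter side of the gene, had 61 fragments in the control and 36 with RA. Peaks at chr11:99136136-99136781, with 51 and 28 fragments, and at chr11:99162806-99163657, with 56 and 28, were the others. The depth-scaled ratio was 0.910, 0.830, 0.773 and 0.704 at these sites, and each interval included 1. Control peaks in the third exon of Ccr7 had 20 and 19 fragments, and no RA peak overlapped either of them.

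Cxcr5, the receptor for Cxcl13 that defines follicular helper T cells and B cells, lies at chr9:44511787-44526444. Its highest BATF peak was at chr9:44537686-44538331, 11242 bp beyond the promoter end of the gene, with 166 fragments in the control (fold 20.6) and 98 with RA (fold 16.4). The depth-scaled ratio was 0.831 (0.640 to 1.07). An intronic peak at chr9:44515226-44515969 had 69 fragments in the control and 49 with RA, a ratio of 0.999 (0.678 to 1.46). The control list also held promoter peaks at chr9:44525392-44525784 and chr9:44526422-44526710, with 18 and 24 fragments, and the RA list had no peak within 5 kb of either. Other control peaks counted for Cxcr5, such as chr9:44482621-44483104 and chr9:44494937-44495673, lay in or over the neighbouring gene Bcl9l and named it too. The RA list skipped 10 peak numbers between chr9 positions 44113646 and 44479265, and the control list skipped 8 between 44306007 and 44417663. Peaks with those numbers were not analysed here, so the counts for Cxcr5 may be partial on its lower side.

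Cxcr4 was the receptor whose set of BATF peaks was the same in both lists, with all 5 control peaks overlapped by an RA peak. It is the receptor for Cxcl12, and the gene lies at chr1:128588199-128592299. The promoter peak at chr1:128590556-128592658 spanned 2103 bp and had 84 fragments in the control (fold 20.4) and 52 with RA (fold 16.7). Beyond that end of the gene 3 peaks stood at 19550, 22420 and 25118 bp, with 66, 31 and 87 fragments in the control. With RA they had 50, 21 and 66. The farthest of the 3, at chr1:128617417-128618071, had the highest fold of the locus in each list, 22.5 in the control and 22.1 with RA. All 5 Cxcr4 peaks named Cxcr4 alone, and their depth-scaled ratios ran from 0.704 to 1.07, each with an interval that included 1. A peak 38764 bp on the other side of the gene gave the lowest of these ratios, with 46 fragments in the control and 23 with RA.

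Cxcr3, the receptor for the interferon-induced chemokines Cxcl9, Cxcl10 and Cxcl11 and a hallmark of type 1 effector T cells, lies at chrX:101731535-101734147. It had a strong BATF peak 2881 bp from the gene, at chrX:101737028-101737853, which was classed as intergenic and also named Ogt. The site had 102 fragments in the control (fold 12.7) and 74 with RA (fold 16.3). Relative to depth the values were nearly equal, with a ratio of 1.02 (0.746 to 1.39). The local IgG level recovered from the fold was 7.00 without RA and 3.60 with RA. Both levels come from the same IgG file and each is scaled to its own pool, so they are not directly comparable. A weaker control peak 32971 bp away, with 31 fragments, had no RA peak within 5 kb.

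Ccr2, the receptor for Ccl2 on monocytes and on effector and memory T cells, lies at chr9:124101918-124109140 within a cluster of chemokine receptor genes that also holds Ccr1 and Ccr3. The strongest BATF peak of all 9 genes was in this cluster, at chr9:124146102-124146855. It lay 36962 bp from Ccr2 and did not name Ccr2 alone, so its link to Ccr2 is by position only. It had 221 fragments in the control (fold 39.5) and 140 with RA (fold 33.9), and by fold it ranked 33 of all BATF control peaks and 35 of those with RA. The depth-scaled ratio was 0.891 (0.716 to 1.11). On the other side of Ccr2 a peak at chr9:124068279-124069045 had 58 fragments in the control and 39 with RA. The 2 promoter peaks of Ccr2 were weaker. The peak at chr9:124100160-124100573, 1345 bp before the gene, had 38 fragments in the control and 19 with RA. The peak at chr9:124103396-124103796, in the first intron, had 40 in the control and no overlapping RA peak.

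**Figure D2:**
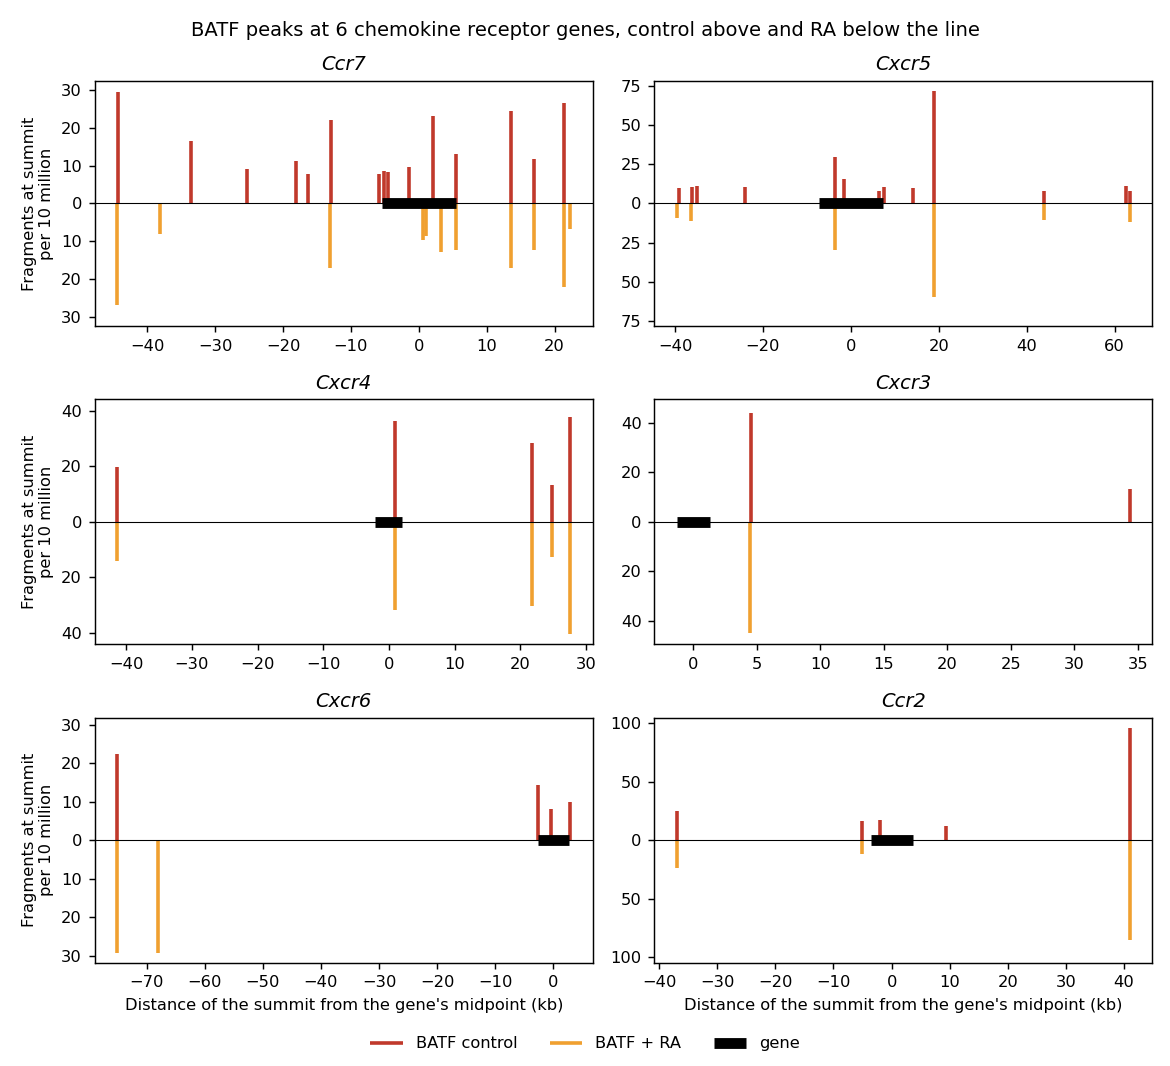
BATF peaks that name Ccr7, Cxcr5, Cxcr4, Cxcr3, Cxcr6 and Ccr2, by distance of the summit from the midpoint of the gene (horizontal axis, kb). Each line is a peak and its length the fragments at the summit per 10000000 fragments of the pool, drawn upward for control and downward for RA; the black bar is the gene, and peaks named for other genes only are not drawn. The strong sites of Cxcr4, Cxcr3, Cxcr5 and Ccr2 are mirrored in the RA list, whereas the 3 peaks at Cxcr6 itself have no line below them and the RA line nearest to Cxcr6 has none above it.

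Ccr4, the receptor for Ccl17 and Ccl22, had a promoter peak in both lists, at chr9:114496571-114497031 in the control. It had 36 fragments in the control (fold 4.06) and 31 with RA (fold 4.74), a depth-scaled ratio of 1.21 (0.725 to 2.01). Control peaks 2495 and 1407 bp from the other end of the gene, with 38 and 32 fragments, had no RA peak within 5 kb. Ccr8, the receptor for Ccl1, and Cx3cr1, the fractalkine receptor of long-lived effector CD8 T cells, had no peak in the gene or at the promoter in any list. Their 3 shared BATF control peaks lay 61413 to 89731 bp from Ccr8 and 17963 to 46281 bp from Cx3cr1, with 22 to 29 fragments. The peak at chr9:120011014-120011663, with 29 fragments, was also called with RA, with 16.

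Cxcr6, the receptor for Cxcl16 that marks tissue-resident and effector CD8 T cells, lies at chr9:123806477-123811754, inside the span of Fyco1. The control list held 3 BATF peaks at the gene. The promoter peak at chr9:123806182-123806754 had 33 fragments (fold 5.60), the peak in its intron had 19 and the peak over its end had 23. The RA list had no peak that overlapped any of them. It did hold a peak within 5 kb of the last, at chr9:123814259-123814846 with 29 fragments, classed as an intron peak of Fyco1 and not named for Cxcr6. The control list skipped 3 peak numbers between chr9 positions 123851954 and 123931590, on the far side of Cxcr6. The 2 BATF sites that named Cxcr6 with RA lay on the side of Ccr9, at 72041 and 65310 bp. The farther of these was called in both lists, with 52 fragments in the control and 48 with RA, a depth-scaled ratio of 1.30 (0.859 to 1.96).

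The nearer site, between Lztfl1 and Ccr9, had RARα in both lists and BATF only with RA. None of the few RARα peaks at the other receptor genes showed this. Over the whole RARα control list, 24 peaks, this one among them, overlapped a BATF peak with RA and had no BATF control peak within 5 kb. RARα had 47 fragments there in the control, at chr9:123740751-123741293 (fold 12.4), and 24 with RA, at chr9:123740704-123741132 (fold 6.32). Relative to depth the RARα value with RA was 0.515 times the control value (0.301 to 0.859), and the median over the 99 overlapping RARα pairs of the whole lists was 0.784. BATF had no peak there in the control list, whose nearest peak was 6483 bp away. With RA, BATF had a peak at chr9:123740851-123741167 with 48 fragments and a fold of 16.2. Its summit was 21 bp from the RARα control summit. The site was 25918 bp from Ccr9 and 65184 bp from Cxcr6, and the annotation named Ccr9, Fyco1, Cxcr6, Slc6a20a and Lztfl1, so it cannot be assigned to Cxcr6 from these lists.

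The site is listed because BATF was called there with RA, in 1 pooled list. The RA pool was the shallower of the BATF pools, and its 48 fragments (35.4 to 63.6) correspond to 67.5 (49.8 to 89.5) at the depth of the control pool. The IgG level at the site was 2.03, the lowest value of any BATF peak with RA, and 1546 such peaks had a level within 5% of 2.03. In the BATF control list 2328 peaks likewise lay within 1% of that list's lowest level, 2.86. Such a shared lowest value can be a floor of the peak caller and need not be a reading of IgG at the site. The weakest BATF control peak called at the lowest IgG level of that list had 13 fragments. The BATF peak numbers on either side of the site in the control list followed each other without a gap. Why the control list held no peak at the site was not tested. Among the 371 BATF peaks with RA that had no control peak within 5 kb, whose median was 16 fragments and a fold of 4.57, this site had the highest fold. It was also the only one of the 30 receptor peaks with RA that had no control peak within 5 kb, since 29 had one, a share of 96.7% against 96.3% over the whole list.

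**Figure D3:**
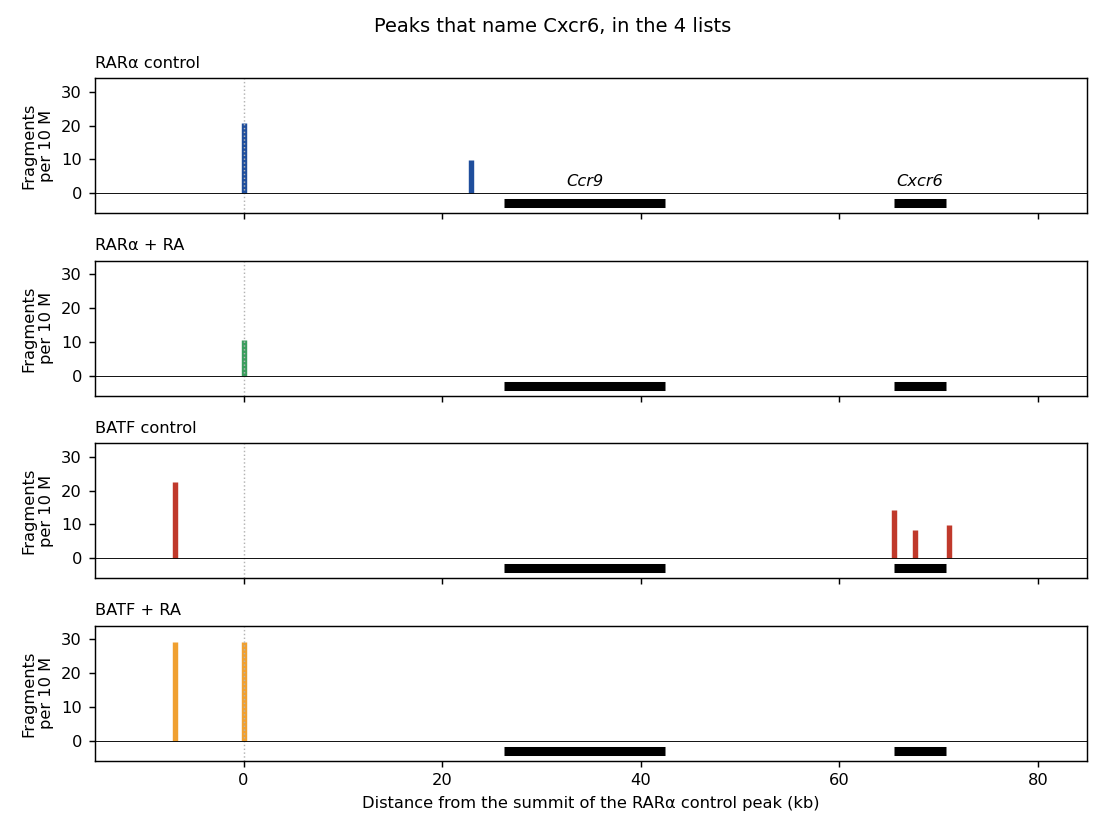
Peaks that name Cxcr6 in each of the 4 lists, by distance of the summit from that of the RARα control peak (horizontal axis, kb), with the fragments at the summit per 10000000 fragments of the pool as height; black bars are Ccr9 and Cxcr6. At 0 kb RARα has a line in both conditions (20.7 in the control and 10.7 with RA), and BATF has a line with RA (29.2) and none in the control.

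RARα peaks at the other receptor genes were few, with folds near the median of 3.09 over the whole RARα control list. Ccr7 had 2 in the control, both on the side away from its promoter. The peak at chr11:99104863-99105273 had 23 fragments and a fold of 3.02 over an IgG level of 6.95, and it overlapped the distal BATF site that was called in both conditions. The peak at chr11:99125163-99125599 had 13 fragments and a fold of 3.11 and overlapped a BATF control peak. The peak named for Ccr8 and Cx3cr1, at chr9:120133287-120133538, had 11 fragments and a fold of 3.09. The last 2 of these peaks had a −log10 q of 0.555 and 0.201, so neither reached a q-value of 0.05. The peak named for Ccr8 and Cx3cr1 lay 918 bp from Rpsa, a ribosomal protein gene, and 38381 bp from Ccr8. A second RARα control peak near Cxcr6, at chr9:123763734-123764038, had 22 fragments and a fold of 5.93 and stood 3173 bp from Ccr9. With RA none of these 4 sites had an RARα peak within 5 kb, so 1 of the 5 control peaks had one, against 10.2% over the whole RARα control list, at 99.2% of the control depth. Of the 5 RARα control peaks, 3 had BATF bound within 5 kb in the control, against 61.9% over the whole list. In the other direction, 2 of the 50 BATF control peaks had RARα bound within 5 kb in the control, against 7.16%.

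Of the 50 BATF control peaks at the receptor genes, 36 had an RA peak within 5 kb (72.0%, Wilson interval 58.3 to 82.5), against 69.9% of all BATF control peaks. The peaks without one were the lower ones, with 18 to 38 fragments and a median of 24, while those with one had 18 to 221 and a median of 37. The same split over the whole list gave medians of 25 and 35. An RA peak overlapped 25 of the 50 directly, against 54.4% over the whole list. By class these were 5 of 10 promoter peaks, 19 of 34 intergenic peaks, 1 of 3 intron peaks and 0 of 3 exon peaks.

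The lower depth of the RA pool moves with the peaks that were not found again. For the 25 control peaks without an overlapping RA peak, the fragments scaled to the RA depth were 12.8 to 28.4. The weakest peaks that the RA list held at IgG levels within 5% of the scaled ones had 10 to 21 fragments. Taken peak by peak, the scaled value was above that weakest peak for 23 of the 25, and the lower end of its interval was above it for 6. Highest among the 25 were the first-intron peak of Ccr2 (40 fragments in the control), a Ccr7 peak at chr11:99115950-99116751 and the peak 2495 bp from Ccr4 (38 each). The first 2 of these had an RA peak within 5 kb and the third did not. For the 25 peaks a change in binding and the lower depth cannot be told apart, since each was chosen as called in the control and has no replicate.

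At the 25 receptor peaks that were overlapped by an RA peak, the median depth-scaled ratio of BATF was 0.938 (0.831 to 1.04). Over all 8605 overlapping BATF pairs it was 0.838. Such pairs had to be called in both lists, so the ratio leaves out the control peaks without an overlapping RA peak. It does not show whether binding was kept over all receptor peaks. For fold enrichment the medians were 0.891 and 0.827. The interval of the ratio lay below 1 at 1 of the 25 receptor pairs, against 8.66% of all overlapping pairs, and above 1 at none, against 0.325%. The exception was the broad promoter peak of Ccr7, where the summits of the pair lay 1162 bp apart. Over the 36 pairs within 5 kb the median ratio of fold was 0.961 (0.821 to 1.18) at the receptors and 0.868 over all pairs. These 36 control peaks were paired with 28 RA peaks, and 11 of them with a peak that did not overlap.

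**Figure D4:**
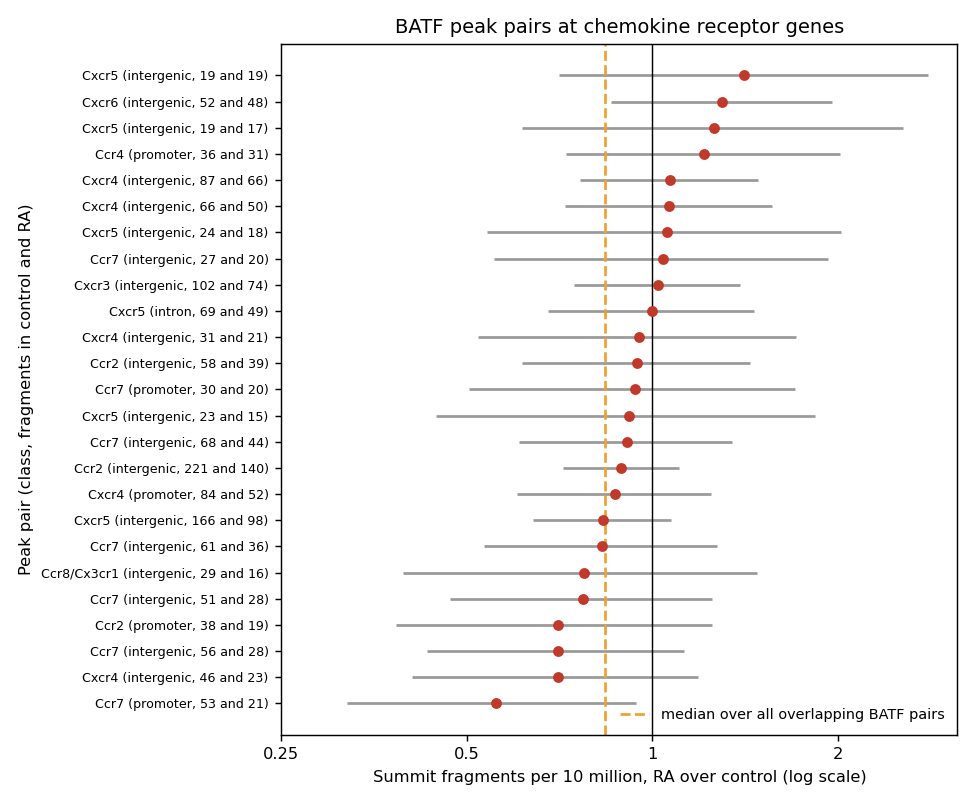
Depth-scaled ratio of BATF summit fragments, RA over control (horizontal log axis), at the 25 overlapping peak pairs of the receptor genes, ordered by ratio; bars are 95% counting intervals, the solid line is 1 and the dashed line is the median over all overlapping BATF pairs (0.838). Labels give the gene, the class of the control peak and the fragments in control and RA, and the interval stands clear of 1 only at the lowest pair, the broad promoter peak of Ccr7 (0.558). The summits of that pair lie 1162 bp apart.

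Among the 15 other chemokine receptor genes, 8 were named at BATF peaks in each list (53.3%, near the 46.2% of all protein-coding genes in the control), and Ccr6, Ccrl2, Cxcr1, Cxcr2, Ackr1, Ackr3 and Ackr4 were at 0 in all 4. Of the 8, Ccr1, Ccr1l1 and Ccr3 were among those that shared BATF control peaks with Ccr2, and Ccr9 shared a peak with Cxcr6. RARα control peaks named Ccr9 and Xcr1 among others, and Ccr9 was named with RA too. Of 16 genes of the chemokines that bind the 9 receptors, 6 were named at BATF control peaks (37.5%), 5 with RA (31.2%) and none at RARα peaks. Of 14 genes that act below the receptors, 12 had BATF peaks in each list (85.7%). These shares stand beside 46.2% and 36.4% of all protein-coding genes, and no difference was tested. Rhoh, an inhibitory GTPase of blood cells, had 17 and 11, Rac2, a GTPase of cell migration, had 10 and 6, and Gnai2, the G protein subunit coupled to chemokine receptors, had 8 and 3. Rac2 and Dock2 were the genes of this list with an RARα control peak. As to the identity of the cells, the CD8 genes Cd8a and Cd8b1 had 16 and 20 BATF control peaks, Cd3e had 1 and Cd3g 3, and Cd4 and Zbtb7b had none. The B cell genes Cd79a and Ms4a1 had 1 and 2, Itgam had 1 with Csf1r and Lyz2 at 0, and Klrb1c had 6 with Ncr1 at 0. Binding is not expression, and whether other cell types contributed fragments was not tested.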

How the data were processed

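ChIP-seq peak lists for RARα and BATF, control and RA, were used as deposited. According to the methods, the labels and the file headers, the authors aligned paired-end reads with Bowtie2 to mm10, called peaks with MACS 2.2.7.1 at p-value cutoffs of 0.001 (RARα) and 1e-05 (BATF), and annotated them with HOMER. The pileup that the authors deposited is a signal that counts fragments over the summit. The peak caller had scaled it by 0.988 in the BATF control list, and it was returned to whole fragments. The deposited fold enrichment is a ratio of pileup to local IgG level, each with 1 added, and the IgG level was recovered from it. The authors deposited the p-value and q-value columns on the −log10 scale. These were used only for the alternative thresholds and for the q-values given for RARα control peaks.

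Peaks were assigned to genes by the deposited symbols, and distances were measured to RefSeq spans on GRCm38.p6, the assembly of mm10. Peaks within 5 kb were counted as shared, after the methods. Pairs joined each control peak to the RA peak of nearest midpoint. Ratios of depth-scaled fragments carry exact conditional binomial intervals, single counts exact Poisson intervals and medians binomial order-statistic intervals. Python 3.11.15 with numpy 2.4.6, pandas 2.3.3 and scipy 1.17.1 was used, and the steps were tested on simulated data. The 9 genes are all named, and the members and lists were chosen with earlier results of these data known. No file of the IgG sample was used here, and no sequence was read. Some genes of the lists are not reported here.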

Additional observations from a re-analysis of the deposited data

Results flagged for a closer look

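The site between Lztfl1 and Ccr9 that names Cxcr6 was flagged because RARα had fewer fragments with RA while BATF was called only with RA. The lists give no BATF level at the site in the control, so the size of a BATF change is not known. RARα had 47 fragments in the control and 24 with RA, and BATF had no peak in the control list and 48 fragments with RA. Each factor has 1 list per condition, and the difference between the factors was not tested.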

How the results depend on the processing

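No paired analysis was possible because each condition has 1 pooled list and no test was run. Of 73 recomputed values, 49 stayed within 1.5 times a count, within the Wilson interval of a share or within the interval of the median ratio. The cause of the other changes was not tested, apart from the smaller number of peaks that a stricter setting leaves. RARα control peaks numbered 3, at 2 genes, with p at most 1e-05 or q at most 0.05, 2 at 1 gene with a fold of at least 5, and 0 within 10 kb of a gene or among peaks that name 1 gene, a setting added after the data were seen. RARα peaks with RA numbered 0 under the last 2 settings, at 0 genes within 10 kb. BATF control peaks numbered 29 with a fold of at least 5, 24 within 10 kb and 20 among those naming 1 gene, and BATF peaks with RA numbered 19, 11 and 12. The share of BATF control peaks with an RA peak was 50.0% by overlap and 54.0% within 1 kb. BATF peaks with RA within 10 kb of a gene had a control peak in 100% of 11 cases. With a fold of at least 5, 0% of 2 RARα control peaks lay near a BATF control peak. The median ratio of fold at the pairs turned from 0.961 to 1.04 with no constant added to the IgG level and to 1.16 for peaks within 10 kb.

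The absence of replicates, the lower depth of the BATF pool with RA and the shared IgG file limit every comparison between conditions. Peaks far from a gene, and those that name several genes, cannot be assigned to a receptor from these lists.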

Other observations

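The arrangement at the Cxcr6 and Ccr9 site was looked for elsewhere after its values had been seen. Of 498 RARα control peaks that overlapped a BATF peak with RA, 24 had no BATF control peak within 5 kb, and 3 of these lay on 1 unplaced scaffold. By RARα fold the site between Lztfl1 and Ccr9 (12.4) was second to a site 130317 bp from Tpra1 (16.5), and by BATF fold with RA it was the highest of the 24. Other sites of this kind lay in introns of Map2k5 (RARα fold 8.17, BATF fold with RA 7.58), of Il12rb2, a subunit of the IL-12 receptor (3.86 and 8.86), and of Dnmt3a, a DNA methyltransferase (4.21 and 4.22).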
